A study of Homo sapiens with 10 samples.

Results

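FLAG-only intergenic peaks are sites between genes at which tagged ZMYND8, but not the antibody to ZMYND8 itself, gave a peak. ZMYND8 is a chromatin reader whose PHD, bromodomain and PWWP modules together bind histone tails, both modified and unmodified, and DNA. All 10 samples were ChIP-seq libraries or inputs of HEK293, a human line of embryonic kidney origin that has long been in culture. The 2 targets used here, ZMYND8 and FLAG-ZMYND8, had 2 replicates each and 1 peak list each. For the FLAG-ZMYND8 ChIP, Flp-In T-REx HEK293 cells with an inducible full length 3xFLAG-ZMYND8 transgene received 10 nM doxycycline, so that the tagged protein was overproduced, and chromatin was precipitated with an anti-FLAG antibody. For the ZMYND8 ChIP the labels name Flp-In T-REx HEK293 cells with stable full length 3xFLAG-ZMYND8 or its N228F mutant, without saying which sample had which, and mention no induction. Chromatin of both was cut with micrococcal nuclease (MNase) and released by sonication. Induction and antibody therefore differed between the lists, the cells may have, and their parts in the absence of a ZMYND8-list peak cannot be told apart.

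The peaks were chosen by their measured calls and widths and by their position. A peak of the FLAG-ZMYND8 list was counted when it was narrower than 1000 bp, overlapped no peak of the ZMYND8 list, and had its midpoint more than 3 kb from the start site (TSS) of every gene and inside no gene of any type, on chromosomes 1 to 22 and X. Of the 63690 FLAG-ZMYND8 peaks, 8530 met the rule, or 13.4% (95% Wilson interval 13.1 to 13.7%). The width rule left 62541 peaks, the absence of a ZMYND8 peak 56301, the distance from a TSS 35749, and the position outside genes 8530. The same rule with the midpoint inside a gene gave 27219 peaks, which serve below as the closest comparison. Another 470 peaks of the same width and position overlapped a ZMYND8 peak, and 1684 of the 15086 ZMYND8-list peaks met the same rule the other way round. Overlap with the ZMYND8 list was low elsewhere too. At any width it was 5.63% for FLAG-ZMYND8 peaks between genes and 5.03% for those inside genes more than 3 kb from a TSS. Over the whole FLAG-ZMYND8 list it was 10.7%. Counted from the shorter ZMYND8 list, 21.8% of its 2160 peaks between genes, at any width, overlapped a FLAG-ZMYND8 peak. Just inside the thresholds, the widest counted peak was 993 bp and the nearest to a TSS had its midpoint 3001 bp away, whereas the next peaks outside were 1016 bp wide and 3000 bp away. The lists hold no read counts and no replicates, so depth and the spread between replicates are unknown. The intervals below cover counting error of peaks only, and neighbouring peaks are not independent.

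Sequence between genes, like introns, holds many enhancers, which are often found in groups and act on promoters at a distance. It also holds many copies of interspersed repeats, of which the Alu elements, descended from 7SL RNA, are rich in G, C and CpG dinucleotides. A CpG is a C followed by a G, the site of DNA methylation in vertebrates, and it is rare outside CpG islands.

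As a background for position and sequence, every 200 bp window of the genome whose midpoint met the same position rule was counted. These allowed windows, 4850802 in number, spanned 970.16 Mb, or 34.2% of the sequenced genome. The 8530 peaks made 8.79 per Mb of allowed sequence (exact Poisson 95% interval 8.61 to 8.98).

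To show what these sites look like, 5 of them are printed in lower case with each CpG in capitals, from the plus strand of GRCh37, the build that is also named hg19. The first 3 are the widest peaks of at most 300 bp in clusters by DDIT4 on chromosome 10, by IER5 on chromosome 1 and between SMUG1 and CBX5 on chromosome 12. Next come the peak with most CpG dinucleotides and the peak with the lowest GC content among those of at most 300 bp.
DDIT4 cluster, chr10:74090928-74091224: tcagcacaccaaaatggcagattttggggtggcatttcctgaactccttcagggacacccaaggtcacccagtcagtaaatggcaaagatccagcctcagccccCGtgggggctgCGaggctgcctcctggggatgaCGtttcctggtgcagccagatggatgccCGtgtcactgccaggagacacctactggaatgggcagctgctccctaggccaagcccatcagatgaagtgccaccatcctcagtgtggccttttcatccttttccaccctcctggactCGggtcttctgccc
IER5 cluster, chr1:181072079-181072374: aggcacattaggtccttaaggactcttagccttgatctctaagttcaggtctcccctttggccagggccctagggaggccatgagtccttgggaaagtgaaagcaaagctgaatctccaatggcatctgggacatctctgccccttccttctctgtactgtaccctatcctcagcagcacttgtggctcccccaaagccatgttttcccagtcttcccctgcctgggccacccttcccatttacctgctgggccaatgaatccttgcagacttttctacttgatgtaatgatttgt
SMUG1 to CBX5 cluster, chr12:54610661-54610959: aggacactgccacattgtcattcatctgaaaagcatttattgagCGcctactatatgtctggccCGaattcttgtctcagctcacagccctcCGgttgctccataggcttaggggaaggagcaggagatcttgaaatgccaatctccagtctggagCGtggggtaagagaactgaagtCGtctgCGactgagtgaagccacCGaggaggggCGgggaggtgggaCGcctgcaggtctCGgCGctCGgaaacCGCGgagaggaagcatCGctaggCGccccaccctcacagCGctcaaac
most CpG, chr14:105499789-105499997: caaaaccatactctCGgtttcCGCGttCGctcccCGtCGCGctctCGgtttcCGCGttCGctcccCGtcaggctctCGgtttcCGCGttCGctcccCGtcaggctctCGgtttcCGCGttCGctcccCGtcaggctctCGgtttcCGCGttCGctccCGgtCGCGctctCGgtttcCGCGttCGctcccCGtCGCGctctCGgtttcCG
lowest GC, chr1:151945338-151945504: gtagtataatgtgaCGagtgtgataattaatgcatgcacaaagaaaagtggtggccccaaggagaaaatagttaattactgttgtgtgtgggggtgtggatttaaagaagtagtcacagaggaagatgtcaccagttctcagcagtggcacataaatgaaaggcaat
The 3 cluster peaks held 5, 0 and 17 CpGs in 297, 296 and 299 bp, with GC contents of 58.2%, 51.4% and 57.2%. The CpG-richest peak, 12.47 kb from the TSS of CDCA4, held 38 CpGs in 209 bp within a tandem repeat that can be read in the sequence. The peak of lowest GC content, 20.9 kb from the TSS of S100A10, was at the minimum width of 167 bp and held 1 CpG.

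The peaks lay in sequence far richer in G and C than allowed windows at large, a property that the rule did not use. In the 200 bp at the midpoint, the median GC content was 56.5% (95% interval of the median 56.0 to 56.5%), against 39.0% over allowed windows, and 91.7% of the peaks against 14.5% of the windows had a GC content of at least 50%. The median over the peaks was above that of the windows on 23 of 23 chromosomes. None of the 8530 peaks lay in sequence under 35% GC, although that sequence made 299 Mb, or 30.9% of what the rule allowed, and 3 peaks lay between 35 and 40%. Density rose from 4.86 per Mb at 45 to 50% GC to 28.3 at 50 to 55%, 86.0 at 55 to 60% and 150 at 60 to 65%, stayed at 151 at 65 to 70% and was 64.5 above 70% (52.4 to 78.5). FLAG-only peaks inside genes had the same median, 56.5% (56.0 to 56.5%), with the same interval. The 470 peaks that a ZMYND8 peak overlapped had a median of 59.0% (58 to 60%). CpGs had a median of 4 in 200 bp for the FLAG-only intergenic peaks, 1 for windows, 5 for FLAG-only peaks inside genes and 7 for the peaks shared with ZMYND8. At least 10 CpGs were held by 12.4% of the FLAG-only intergenic peaks, 0.996% of windows and 34.7% of the shared peaks (30.5 to 39.1%).

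**Figure D1:**
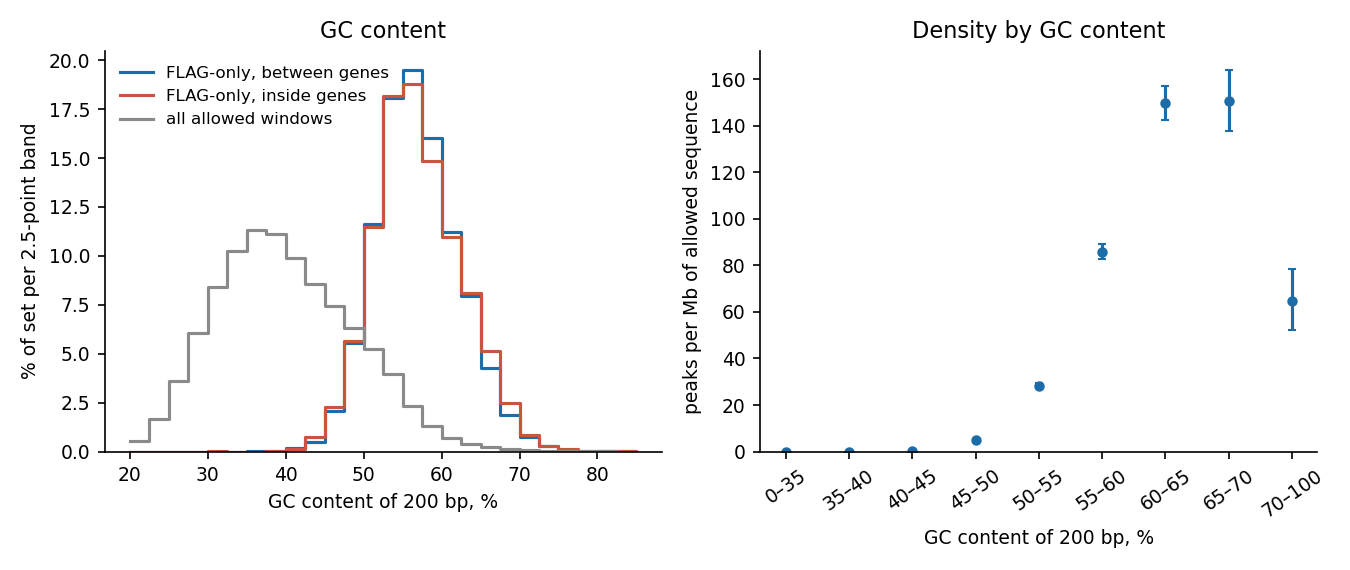
Left, GC content of the 200 bp at each midpoint, as the percentage of each set per band of 2.5 points, for FLAG-only peaks between genes, FLAG-only peaks inside genes and all allowed windows. Right, FLAG-only intergenic peaks per Mb of allowed sequence by GC content, with exact Poisson 95% intervals. Both peak sets centre on 56.5% GC, far to the right of the windows at 39.0%, and density is highest between 60 and 70% GC.

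Peaks were densest near genes. The median distance to the nearest TSS of any gene was 12.8 kb (12.4 to 13.1 kb), against 29.0 kb for allowed windows, and the median to the nearest protein-coding TSS was 29.2 kb (28.1 to 30.2 kb) against 145 kb. The nearest TSS belonged to a protein-coding gene for 36.9% of the peaks, to a lncRNA gene for 31.3%, and to another type, such as a pseudogene or a small RNA, for 31.8%. Density fell at each step away from a TSS, from 20.5 per Mb at 3 to 5 kb (19.4 to 21.6) through 12.8 at 10 to 20 kb and 3.28 at 50 to 100 kb to 0.475 beyond 200 kb (0.271 to 0.771), where 16 peaks lay in 33.7 Mb. Only 145 peaks, or 1.70%, were more than 100 kb from every TSS, but 1630, or 19.1%, were more than 100 kb from every protein-coding TSS. The windows themselves became poorer in GC with distance, with medians from 42.0% at 3 to 5 kb to 36.0% beyond 200 kb, whereas the medians of the peaks stayed between 55.75 and 56.5%. To allow for this, the number of peaks in each range was set against the number that its windows would hold if every window had the mean density of its own 2.5-point GC band. The ratio of observed peaks to this number fell from 1.51 at 3 to 5 kb (1.43 to 1.60) to 0.852 at 20 to 50 kb, 0.273 at 100 to 200 kb and 0.127 beyond 200 kb (0.0725 to 0.206). With protein-coding TSSs it fell from 2.03 (1.88 to 2.20) to 0.367 (0.341 to 0.395). The fall with distance was thus also seen in these ratios, which allow for GC content only, and its cause was not tested.

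**Figure D2:**
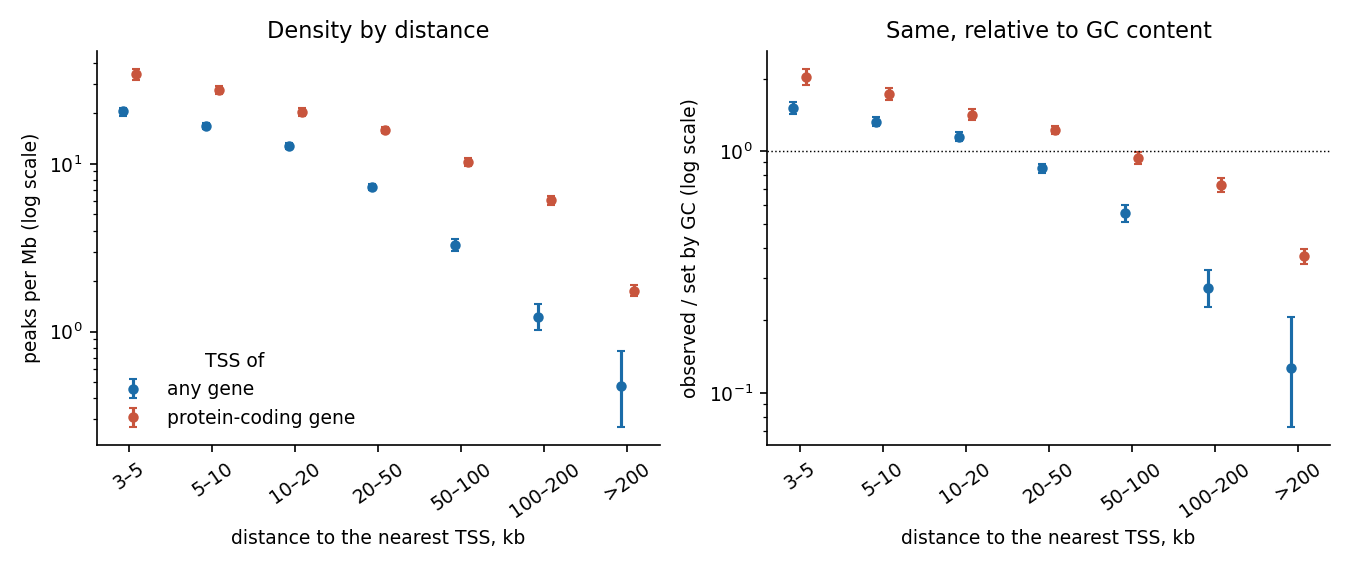
Left, FLAG-only intergenic peaks per Mb of allowed sequence by distance to the nearest TSS of any gene or of a protein-coding gene, on a log scale. Right, observed peaks divided by the number set by the GC content of the windows in each range, on a log scale, with a dotted line at 1. Bars are exact Poisson 95% intervals, and both measures fall from the range of 3 to 5 kb to the range beyond 200 kb.

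The 5 peaks farthest from a TSS lay between 270.5 and 286.75 kb away. A pair of them, 250 and 208 bp wide, stood on chromosome 5 by the pseudogene HMGB1P29, more than 422 kb from CSNK1G3, a casein kinase gene. The others lay on chromosome 10 (480.5 kb from MKI67, the proliferation marker Ki-67), chromosome 1 (692 kb from the adhesion receptor gene ADGRL2) and chromosome 7 (282.5 kb from INHBA, an activin subunit gene), each alone and at the minimum width. The 5 widest peaks, from 983 to 993 bp, lay from 3.24 to 13.3 kb from a TSS. Their nearest protein-coding TSSs were those of STC2, which encodes a secreted glycoprotein (3.27 kb), NR2F2, a nuclear receptor (21.8 kb), DLX2, a homeobox factor (6.0 kb), CEBPA, a bZIP factor (8.54 kb), and UACA (270.9 kb). All 5 had a ZMYND8-list peak within 12500 bp, with gaps from 1.56 to 9.01 kb.

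Beside gene starts and gene ends, density was much alike once the same distances were compared. The rule keeps out the 3 kb around a TSS but not the first 3 kb beyond a 3′ end, and the nearest end of a gene was its 5′ end for 39.4% of the peaks (38.4 to 40.5%) and 45.2% of allowed windows. More than 3 kb from both kinds of end these shares were 46.6% (45.4 to 47.7%) and 47.7%, a comparison added after the data were seen. From 3 to 5 kb, density was 18.5 per Mb beside 3′ ends (17.2 to 19.9) and 17.7 beside 5′ ends (16.4 to 19.1). From 5 to 10 kb the values were 14.7 and 14.5, from 10 to 20 kb 10.8 and 9.99, from 20 to 50 kb 5.47 and 5.26, and farther out 1.81 and 1.49, with overlapping intervals at each range. After division by the number set by GC content, the ratio of all peaks was 1.04 beside 3′ ends (1.02 to 1.07) and 0.940 beside 5′ ends (0.908 to 0.972), but more than 3 kb away it was 0.944 (0.915 to 0.974) and 0.940, so the excess beside 3′ ends lay in the 3 kb that the rule leaves only there. Intervals between convergent genes held 9.88 peaks per Mb (9.51 to 10.3), tandem intervals 8.48 (8.23 to 8.74) and divergent intervals 8.12 (7.73 to 8.52). Relative to GC content the ratios were 1.04, 0.978 and 0.991, and the intervals of the divergent and tandem ratios held 1. Convergent intervals have no 5′ ends, so the rule leaves the sequence next to both their genes. The part of this in their density was not tested. Of the 24438 intervals between genes with allowed sequence, 4412 held at least 1 peak (18.1% in all), and the 3 types did not depart from it, at 18.1% of convergent, 18.1% of divergent and 18.0% of tandem intervals.

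FLAG-only intergenic peaks had neighbours. Another peak of the FLAG-ZMYND8 list lay within 12500 bp of 73.4% of them (72.5 to 74.4%), within 1 kb of 22.98% and within 50 kb of 92.5%. Inside genes the share within 12500 bp was slightly higher, 76.9% (76.3 to 77.3%). A ZMYND8-list peak, though none overlapped by rule, lay within 12500 bp of 39.4% of the peaks (38.3 to 40.4%), against 7.19% of allowed windows and 37.5% of FLAG-only peaks inside genes (36.9 to 38.1%). This share fell with distance from a TSS, from 53.3% at 3 to 5 kb to 12.4% at 100 to 200 kb, and at each range it was above that of the windows, 19.5% and 1.47% at these ranges. Allowed sequence within 12500 bp of a ZMYND8 peak held 48.1 peaks per Mb, 2.32 times the number set by its GC content (2.25 to 2.40), and the remaining sequence held 5.75 per Mb, 0.730 times. A FLAG-ZMYND8 peak of 1000 bp or more lay within 12500 bp of 7.27% of the peaks and 0.548% of windows.

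Linked over gaps of at most 12500 bp, the 8530 peaks formed 5205 clusters. Single peaks made 3575 of these, or 41.9% of the peaks, 908 were pairs, and 22 clusters held 10 peaks or more, with 302 peaks in all. In larger clusters a smaller share of the peaks was at the minimum width and a larger share had a ZMYND8-list peak nearby. The median width was 167 bp at each cluster size. The share at the minimum width was 76.1% among single peaks (74.7 to 77.5%), 64.9% in clusters of 2 to 4 and 56.5% in clusters of 5 or more (53.9 to 59.0%). The share with a ZMYND8-list peak within 12500 bp rose from 27.4% (26.0 to 28.9%) through 41.6% to 63.7% (61.2 to 66.2%). GC content moved less, from 56.5% to 55.75%. Where neighbouring FLAG-ZMYND8 peaks both met the rule, in 4537 pairs, their midpoints were a median of 4969 bp apart, and 719 pairs were under 1 kb apart. No edges were closer than 165 bp.

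The largest cluster surrounded DDIT4, a stress-induced inhibitor of mTORC1 signalling, on chromosome 10 (chr10:73996359-74091224). Its 31 peaks spanned 94.9 kb from 0.740 kb beyond ANAPC16, a subunit of the anaphase-promoting complex, to 1.36 kb from the 3′ end of DNAJB12, a co-chaperone. Of these, 11 were at the minimum width, the widest was 926 bp, and the median GC content of 53.0% was below that of the whole set. DDIT4 was the nearest protein-coding TSS for 18 of them, 10 upstream and 8 downstream, from 5.42 to 36.5 kb away. The same stretch held 44 FLAG-ZMYND8 peaks in all, 8 of them 1000 bp or wider and 4 overlapping a ZMYND8 peak, and 5 ZMYND8-list peaks. The FLAG-only peaks thus stood between broad and shared peaks rather than apart from them, as the map of the cluster shows.

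**Figure D3:**
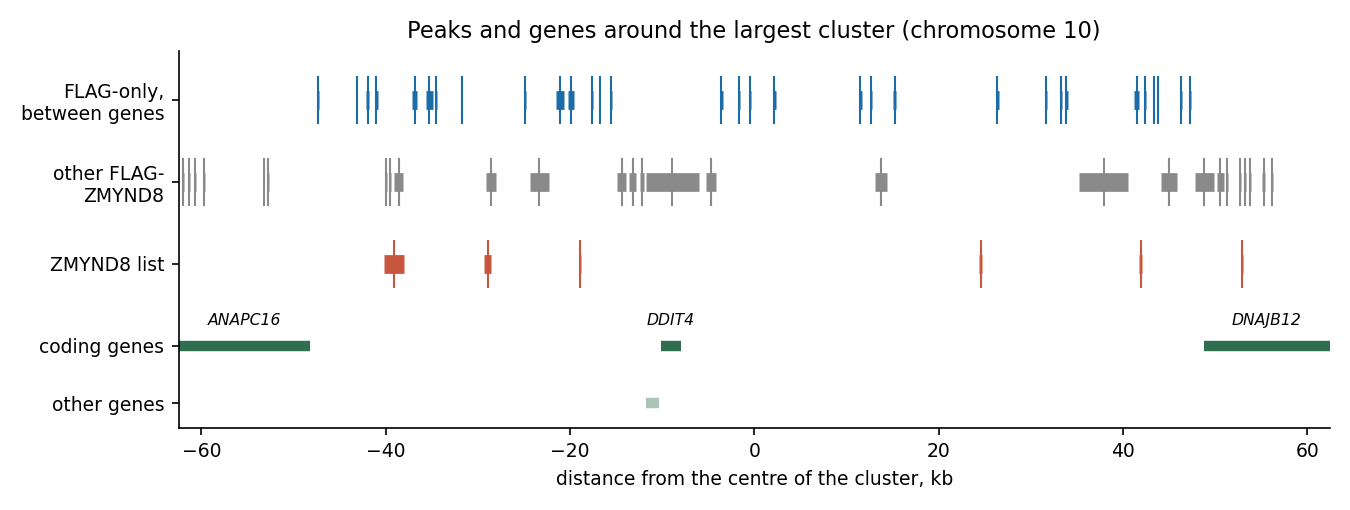
Peaks and genes around the cluster by DDIT4, in kb from the cluster's centre. Boxes are drawn to scale with a thin line at each centre. The 31 FLAG-only intergenic peaks lie on both sides of DDIT4, between ANAPC16 and DNAJB12, among other FLAG-ZMYND8 peaks and 5 ZMYND8-list peaks within the cluster.

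Clusters ranked below it varied in their company. Around IER5, an immediate early gene, 22 peaks spanned 60.9 kb (chr1:181050094-181110979), none wider than 296 bp, with 31 FLAG-ZMYND8 and 6 ZMYND8-list peaks in the same stretch. Upstream of SMAD7, the inhibitory SMAD of TGF-β signalling, 16 peaks spanned 43.97 kb towards DYM (chr18:46501418-46545388), with 5 of 22 FLAG-ZMYND8 peaks there shared with ZMYND8. Between SMUG1, a uracil-DNA glycosylase gene, and CBX5, which encodes heterochromatin protein HP1α, all 16 FLAG-ZMYND8 peaks in 35.3 kb met the rule (chr12:54586386-54621722), and the same held for 15 of 15 in 46.7 kb upstream of PAX2, a kidney developmental regulator (chr10:102410975-102457715), and for 14 of 14 in 44.3 kb between TACC3 and FGFR3, a fibroblast growth factor receptor gene (chr4:1746946-1791218). Upstream of PTMA, which encodes prothymosin alpha, 15 of 17 did so in 40.8 kb (chr2:232526686-232567529). These last 4 stretches held 2, 1, 1 and 3 ZMYND8-list peaks. Over these 7 clusters median GC content ranged from 53.0% by DDIT4 to 66.5% by FGFR3. The remaining 3 of the first 10 clusters, with 23, 12 and 12 peaks, lay between KCNU1 and ZNF703 on chromosome 8, and their medians of 50.5 to 51.5% were the lowest of the first 10.

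By nearest protein-coding TSS, the 8530 peaks fell to 3767 of 20098 genes, or 18.7%, of which 388 had 5 or more peaks and 78 had 10 or more. ZNF703, a transcriptional corepressor gene, led with 52, followed by KCNU1, a potassium channel gene, with 33, where the nearest peak was still 246.5 kb away. Of signalling genes, CXCL12, a chemokine, had 26 peaks from 9.52 to 343 kb away, SMAD7 had 26, FGFR2 had 22 and GAS1, a hedgehog co-receptor gene, had 18. Of transcriptional regulators, TLE3, a Groucho-family corepressor gene, had 24, BCOR, a Polycomb-linked corepressor gene, had 20, and MN1 and NFE2L3, a bZIP factor gene, had 18 each. IER5 had 23, the protein kinase gene PIM1 21, NTMT1, an N-terminal methyltransferase gene, 21, and DDIT4, the guanine exchange factor gene PLEKHG1 and the ubiquitin-conjugating enzyme gene UBE2E1 18 each. All 21 peaks of NTMT1 and all 18 each of NFE2L3, PLEKHG1 and UBE2E1 lay upstream of the TSS, whereas 19 of 20 for BCOR and 21 of 23 for IER5 lay downstream. The first 15 of these genes, without UBE2E1, took only 4.2% of the peaks. A FLAG-ZMYND8 peak midpoint lay within 3 kb of the TSS of 14 of the 15, with KCNU1 the exception, and a ZMYND8-list midpoint did so for 5. Over all genes the TSS had a FLAG-ZMYND8 peak in 70.4% of those with a FLAG-only intergenic peak (68.9 to 71.9%) and in 49.3% of those without one but with allowed sequence nearest to them (48.3 to 50.3%). For ZMYND8-list peaks the shares were 40.03% and 28.9%.

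Gene lists differed in how many of their genes were nearest to at least 1 of the peaks, beside 18.7% of all protein-coding genes. Immediate early genes, which respond to stimuli without new protein synthesis, came first with 14 of 27 (51.9%, 34.0 to 69.3%). Besides IER5, KLF4 had 9 peaks, KLF10 8 and IER2 7. Their allowed sequence held 28.7 peaks per Mb, 2.40 times the number set by GC content (1.89 to 3.00), and 1.81 times without IER5 (1.36 to 2.36), which had 23 of the 77 peaks. The ratios of this and the other lists do not allow for distance to a TSS. By distance to a protein-coding TSS, the ratio over all peaks was 2.03 at 3 to 5 kb, 1.73 at 5 to 10 kb and 1.42 at 10 to 20 kb. The part of distance in the ratios of the lists was not tested. Developmental lists followed. FOX, SOX and TBX factors had 35 of 78 (44.9%), led by FOXB1 with 14, SOX1 with 11, and FOXD2 and SOX4 with 10 each. Homeobox factors had 51 of 138 (37.0%), led by MSX2 with 17, PAX2 with 16, IRX3 with 9 and HOXB1 with 8. WNT, FGF and BMP ligands had 19 of 52 (36.5%), led by WNT11 with 17, BMP7 with 15, WNT4 with 8, and FGF9 and WNT7B with 7 each. Their ratios to the number set by GC content were 1.14 (0.951 to 1.35), 0.958 (0.816 to 1.12) and 1.15 (0.919 to 1.43). Each of these intervals held 1.

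Cytosolic ribosomal protein genes, with 24 of 80 (30.0%, 21.1 to 40.8%), had few peaks each, 5 for RPL29 and 4 each for RPL3, RPS14 and RPS3, in only 1.73 Mb of allowed sequence, 2.03 times the number set by GC content (1.49 to 2.70). Like the others, this ratio does not allow for distance to a TSS. Nuclear receptors had 12 of 46 (26.1%), led by NR2F2 with 11, RXRA with 9, NR2F1 with 6, and NR5A2 and PPARA with 4 each. Potassium, sodium and calcium channel genes had 30 of 134 (22.4%), led by KCNU1, with 8 each for KCNJ2 and KCNMA1 and 7 for KCNJ12. Solute carriers had 75 of 367 (20.4%), led by SLC22A23 with 10, SLC6A6 with 7, SLC25A33 with 6, and SLC29A4, SLC4A3 and SLC7A5 with 5 each. Intervals of these 3 shares held 18.7%. Subunits of NuRD, a chromatin remodelling complex that binds ZMYND8, had 2 of 15 (13.3%, 3.74 to 37.9%), a single peak each for GATAD2A and RBBP7. This wide interval also held 18.7%. With 0.587 Mb of allowed sequence, the ratio of this list to the number set by GC content was 0.598 (0.0724 to 2.16). Low shares were those of ZNF zinc finger genes, 54 of 508 (10.6%), led after ZNF703 by ZNF608 with 12, ZNF184 with 11 and ZNF532 with 6, of keratins, 14 of 149 (9.40%), led by KRT78 with 8 and KRT8 with 4, and of olfactory receptors, 12 of 399 (3.01%, 1.73 to 5.18%), led by OR2V2 with 6 and OR6S1 with 4. Many genes of these 3 lists stand in arrays. Relative to GC content ZNF genes were at 1.02, keratins at 1.51 (1.02 to 2.14) and olfactory receptors at 0.521 (0.330 to 0.781). Some of these ratios rested on 1 gene. Without the gene with most peaks, an alternative chosen after seeing the data, ZNF genes came to 0.706 (0.580 to 0.850) without ZNF703, channels from 1.09 to 0.756 (0.590 to 0.956) without KCNU1, keratins to 1.21 (0.765 to 1.81) without KRT78, and olfactory receptors to 0.392 (0.228 to 0.628) without OR2V2.

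**Figure D4:**
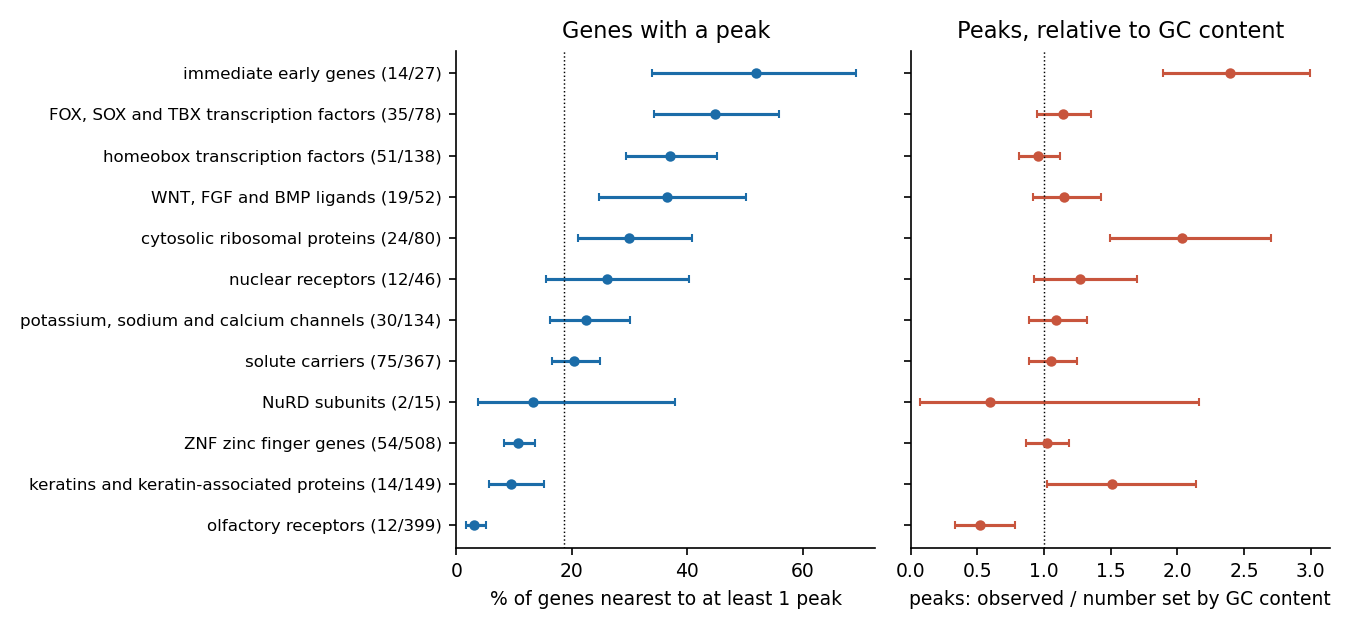
Left, percentage of the genes of each list that are the nearest protein-coding gene of at least 1 FLAG-only intergenic peak, with 95% Wilson intervals, the counts in brackets and a dotted line at the share of all protein-coding genes. Right, peaks nearest to the genes of each list divided by the number set by GC content, with exact Poisson 95% intervals and a dotted line at 1. Immediate early genes are highest in both panels and olfactory receptors lowest in both.

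Chromosomes differed by far more than counting error. Density ranged from 1.93 per Mb on chromosome X (1.63 to 2.27) and 2.66 on chromosome 4 to 29.1 on chromosome 17 and 36.3 on chromosome 22 (32.3 to 40.6). Relative to the GC content of their allowed sequence the range narrowed, from 0.331 on X (0.279 to 0.389), 0.505 on 4 and 0.567 on 21 to 1.497 on 15, 1.56 on 6 and 1.64 on 17 (1.51 to 1.79), and chromosome 22 came to 1.17. Chromosome X was low in both. The whole FLAG-ZMYND8 list had 842 peaks there, of which 17.1% were FLAG-only intergenic, against 13.4% over the whole list. Protein-coding genes per Mb were 5.75 on X, 4.06 on 4, 15.3 on 17 and 12.9 on 22. Chromosome 19 had 26.5, with a ratio of 0.991. The part of gene density in these values was not tested. By bins of 1 Mb, 1588 of 3053 held a peak (52% in all), and 56 held 20 or more. The fullest was the bin on chromosome 8 from 37 to 38 Mb with 80, followed by 1 on chromosome 6 with 41 and 1 on chromosome 15 with 36.

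**Figure D5:**
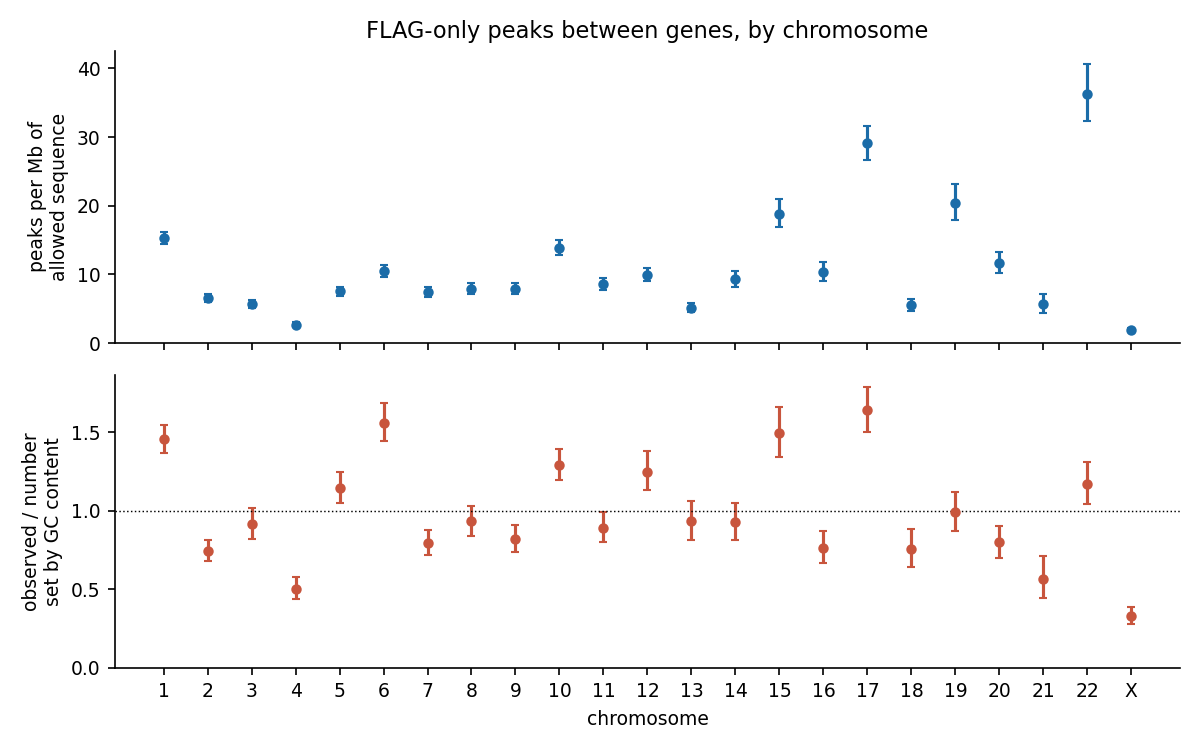
Top, FLAG-only intergenic peaks per Mb of allowed sequence on each chromosome. Bottom, observed peaks divided by the number set by GC content, with a dotted line at 1. Bars are exact Poisson 95% intervals, and chromosome X is lowest and chromosome 17 highest in the lower panel, with chromosome 22 highest in the upper.

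Width was close to that of FLAG-only peaks inside genes and below that of other classes. The minimum of the list, 167 bp, was the width of 68.2% of the FLAG-only intergenic peaks (67.2 to 69.2%), of 66.4% of FLAG-only peaks inside genes (65.8 to 66.9%), of 47.3% of narrow FLAG-only peaks within 3 kb of a TSS (46.6 to 48.0%), and of 52.6% of all other FLAG-ZMYND8 peaks. It was the width of 26.0% of the narrow intergenic peaks that overlapped a ZMYND8 peak (22.2 to 30.1%), whose median was 272.5 bp. A wider peak has more bases in which to overlap another, so the absence of overlap and the width are tied by the rule. Peaks above the minimum width had a GC content of 57.5% (57.5 to 58.0%) against 55.5% at the minimum (55.5 to 56.0%).

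A part of the peaks shared sequence with each other. An identical run of 50 bases, on either strand, occurred in another FLAG-only intergenic peak for 1528 of them, or 17.9%. Joined through such runs, 1337 peaks (15.7%, 14.9 to 16.5%) formed 1 family on 23 chromosomes, and the most common run occurred in 62 peaks. The next families had 33 and 22 peaks. Shares of this kind are not given here for FLAG-only peaks inside genes or for windows. Runs of 50 bases in common are therefore not shown to be particular to these peaks. In the large family 70.8% of the peaks were at the minimum width, and the median was 7 CpGs in 200 bp. No repeat annotation was used here, so the peaks were compared with RN7SL2, a gene for the 7SL RNA from which Alu elements descend (chr14:50329271-50329567, minus strand). A run of 14 bases or more in common with RN7SL2 was found in the central 200 bp of 1604 peaks, or 18.8% (18.0 to 19.6%), of 59.9% of the large family, of 5.96% of allowed windows and of 14.3% of windows at the GC content of the peaks. Inside genes the share was 19.6% (19.2 to 20.1%), and among the peaks shared with ZMYND8 it was 5.53% (3.8 to 7.98%). At 50 to 55% GC, density was 36.6 per Mb in windows with such a run and 25.9 in those without, and at 55 to 60% it was 123 and 78.4, whereas at 45 to 50% it was 4.70 and 4.89 and at 60 to 65% 157 and 149. At 65 to 70% it was 39.8 and 152, with only 2 peaks that held a run. In the DDIT4 cluster 10 of 31 peaks belonged to the large family, and in the IER5 cluster 2 of 22. How reads that match several places were treated is not given in the sources used here, and its part in these values was not tested. Without the 1604 peaks the median GC content was 57.0%, against 56.5% with them. A ZMYND8-list peak lay within 12500 bp of 39.5% without them and 39.4% with them.

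Motifs of common transcription factors occurred at 0.727 to 1.37 times the rate that GC content set. On both strands of the central 200 bp, 16 motifs were searched. Those rich in G and C were the GC box read as GGGCGG, ETS as CGGAAG, NRF1 as GCATGCG, the CTCF core as AGGNGGC, an E-box as CACGTG and another as CAGCTG. Those rich in A and T were the homeodomain motif read as TAATTA, the box bound by TBP as TATAAA, forkhead as TGTTTAC, and the GATA factor motif as AGATAA. The others were AP-1 read as TGANTCA, the box bound by NF-Y as CCAAT, TEAD as GGAATG, CRE as TGACGTCA, RUNX as TGTGGT and STAT as TTCNNNGAA. Some share letters, and a match is a description of sequence only. The GC box was held by 13.4% of the peaks (12.7 to 14.1%), 2.05% of allowed windows and 11.2% of windows at the GC content of the peaks. NRF1 letters were held by 1.74% (1.48 to 2.03%), 0.453% and 1.27%, which was the highest ratio, 1.37, and CTCF core letters by 28.1% (27.2 to 29.1%), 8.46% and 26.4%. AP-1 letters, held by 4.36% of the peaks (3.95 to 4.82%) and 6.49% of windows, came to 4.41% at matched GC content, and GATA letters went from 15.5% of windows to 3.77% at matched GC content and 3.81% of the peaks. The lowest ratio was that of the forkhead letters, 0.727, held by 1.23% of the peaks (1.02 to 1.49%) and 1.69% of windows at matched GC content. Large differences from all windows were therefore small beside windows of like GC content.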

How the data were processed

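Reads had been aligned by the authors to the hg19 build with BWA-MEM, and HOMER made the profiles. The submitters' processing notes of the ZMYND8 samples give BWA 0.7. Peak-calling settings and the merging of replicates are not given in the sources used here. The 2 lists have 6 columns, with positions, a name whose number is unexplained, and a score, which the authors deposited as 1 in every row and which was not used. The lists used here carry no read counts, so depth is unknown.

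Genes were those of GENCODE release 44 on GRCh37, 64486 in all. An overlap of at least 1 bp counted, and distances ran from peak midpoints to TSSs and between peak edges. The number set by GC content was the sum over windows of the mean peak density of their GC band of 2.5 points. Shares have 95% Wilson intervals, medians order-statistic intervals and densities exact Poisson intervals. With 1 list per target no test was made. Genes were named by rule: the 10 clusters with most peaks, the 15 genes with most peaks and ties, the 5 farthest and 5 widest peaks, and up to 4 genes of each of the 12 lists, with ties. The peaks and lists were chosen with earlier results of these data known. The functions were tested on simulated data. Python 3.11.15, numpy 2.4.6, pandas 2.3.3, scipy 1.17.1, numba 0.67.0, matplotlib 3.10.9 and samtools 1.23.1 were used. Alternatives are given at the end. Samples of acetylated histones and inputs were not used here.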

Additional observations from a re-analysis of the deposited data

How the results depend on the processing

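No paired analysis was possible because each target has 1 peak list and no result comes from a test. With protein-coding genes only, 14313 peaks were counted, at a median of 34.7 kb from a TSS, with 65.6% at the minimum width and 48.7% nearest to a 5′ end (51.9% of the windows allowed by that rule). With a TSS window of 1 kb the median distance was 9.29 kb, 76.3% had another FLAG-ZMYND8 peak within 12500 bp and 43.0% a ZMYND8-list peak. With a window of 10 kb, 5048 peaks gave 21.5 kb, 66.9%, 31.9% and 33.7% nearest to a 5′ end (42.8% of windows). With all transcript starts the median distance was 11.6 kb. The 2715 peaks above the minimum width gave 12.1 kb, 82.3%, 47.3% and a GC content of 57.5%. With 1 peak for each of the 5205 clusters the values were 11.9 kb, 56.4%, 32.5% and 63.2% at the minimum width. Within 5 kb another FLAG-ZMYND8 peak was found for 54.8% and a ZMYND8-list peak for 22.8%, and within 50 kb for 92.5% and 72.2%. Without peaks that share a run with RN7SL2, an alternative chosen after seeing the data, GC content was 57.0% and 66.5% were at the minimum width. Median GC content stayed between 56.0 and 57.5% under all 11 alternatives. Leaving out chromosome 8, requiring that no base of the peak lie in a gene, and dropping the width limit moved neither the median distance to a TSS, nor either share with a neighbouring peak, nor the median GC content beyond its interval. The number of peaks under these was 8153, 8511 and 8582, and the other results were not recomputed under them.

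The lists hold no reads, so a peak that was called weakly cannot be told from a strong one, and most peaks have the minimum width. Absence from the ZMYND8 list is absence of a call at an unknown depth.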

Other observations

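The names of the peaks in the FLAG-ZMYND8 list end in a number of unstated meaning, from 6 to 302583. When the list was divided by this number into 5 parts of equal size, the share of FLAG-only intergenic peaks rose from part to part, from 8.60% (8.12 to 9.10%) through 12.6%, 14.2% and 15.2% to 16.4% (15.7 to 17.0%). The median number was 44378 for FLAG-only intergenic peaks, 43709 for FLAG-only peaks inside genes and 24841 for narrow intergenic peaks that overlapped a ZMYND8 peak (20848 to 29068). Among FLAG-only intergenic peaks it was 48234 for single peaks, 43058 in clusters of 2 to 4 and 36249.5 in clusters of 5 or more.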
